A study of Homo sapiens with 8 samples.

Results

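The genes described here encode the laminin chains *LAMA3*, *LAMA5*, *LAMB1*, *LAMB2*, *LAMB3* and *LAMC1* and the hemidesmosome proteins *COL17A1*, *PLEC* and *CD151*, measured by RNA-seq in SUIT2, a human pancreatic ductal adenocarcinoma (PDA) cell line. They were chosen by name, from knowledge of the proteins, but with earlier results of these data known. Their symbols were matched to the gene numbers of the count files. All 9 were found among the 25702 genes listed, and all 9 passed the filter on low counts that 14333 genes passed. Between them they took 0.319% to 0.519% of the counts of a library. The study asked what the homeobox transcription factor *EN1* does in PDA cells, and it introduced a scramble shRNA (shScr) or an shRNA against *EN1* into the cells. Of the 8 libraries, 4 carry the label shScr, and each of the 2 *EN1* constructs (shEN1 #1 and shEN1 #2) has 2. All libraries come from the same cultured line, so no fibroblast, endothelial or immune compartment is part of the model. The labels do not say whether libraries with 1 label came from separate cultures, and p-values therefore measure the spread between these libraries only.

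Laminins are cross-shaped trimers of 1 alpha, 1 beta and 1 gamma chain that form the sheet of the basement membrane under epithelia. *LAMA3* and *LAMB3* are chains of the anchoring laminin of epithelia, whereas *LAMA5* pairs with *LAMB1* or *LAMB2* and *LAMC1* in the laminins of most mature basement membranes. On the cell side, the hemidesmosome joins this sheet to keratin filaments: the integrin *ITGA6*-*ITGB4* binds laminin, *PLEC* (plectin) ties the integrin to keratin, *COL17A1* (collagen XVII) crosses the membrane, *DST* (dystonin) adds a further keratin link, and the tetraspanin *CD151* sits beside laminin-binding integrins. Hemidesmosomes of simple epithelia can be built from the integrin and plectin alone, without *COL17A1* and *DST*.

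Promoter sequences were read because several of these genes varied together between libraries. RefSeq tables of GRCh38.p14 held windows for 7 of the 9 members (9 windows of 250 bases upstream of a start), and *PLEC* and *CD151* were not matched. The windows were searched on both strands for the AP-1 motif TGANTCA, the homeodomain core TAATTA, the E-box CACGTG and the TEAD motif GGAATG. No 2 matches overlapped. The AP-1 letters occurred in 2 of the 9 windows, and 6.57% of 35116 promoter windows of the same length hold them. The other motifs had no match in the 9 windows and occur in 4.35% (TAATTA), 6.34% (CACGTG) and 11.9% (GGAATG) of all windows. The matches are printed with the motif in capitals. They lie before a start of *LAMA3* and a start of *LAMB3*, chains of the same trimer. The other *LAMB3* windows and those of *COL17A1*, *LAMA5*, *LAMB1*, *LAMB2* and *LAMC1* had none.
LAMA3, chr18:23872884-23872912, plus strand, motif 125 to 119 bases before the start: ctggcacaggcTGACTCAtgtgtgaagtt
LAMA3, chr18:23872940-23872968, plus strand, motif 69 to 63 bases before the start: ccttcctcaccTGAGTCAggcaggcccgg
LAMB3, chr1:209651424-209651452, minus strand, motif 67 to 61 bases before the start: gtcagccactcTGACTCAttcactttggg
This *LAMA3* start lies 183567 bases inside the gene, and the *LAMB3* start, 1 of 3 for this gene, lies 1051 bases inside it. A match of letters is a description of the window. Neither binding nor a link to the variation between libraries was tested.

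The 8 libraries held 33423590 to 37810604 counts each. Values are given as CPM, that is, counts scaled to a library size normalized with TMM factors. *EN1*, the targeted gene, was not lower in the libraries labelled shEN1: it had 2.51 to 4.94 CPM in the libraries labelled shScr and 1.35 to 6.70 CPM in those labelled shEN1, and the ranges overlapped. Its fitted log2 difference was 0.26 (SE 0.43; edgeR adjusted p = 1.00), with 0.48 for shEN1 #1 and -0.00022 for shEN1 #2 against shScr. Every direction between groups is a direction between labels. All 6 epithelial markers examined were present in every library, with a summed level of 11442 to 18546 CPM. Of the 6 fibroblast markers 4 were at 0 in every library, including *COL3A1* and *DCN* (sum 1.17 to 4.22 CPM), of the 3 endothelial markers *CDH5* was at 0 (sum 0.316 to 0.676 CPM), and of the 3 leukocyte markers *PTPRC* and *CD3E* were at 0, the sum of 7.75 to 34.6 CPM coming from *CD68*, which other cells also express. The libraries were first compared over the 14324 tested genes that are not members. The nearest library in log2 CPM carried the other label for 7 of the 8 libraries, the exception being shEN1 #1 replicate 2, nearest to shEN1 #2 replicate 2. The headers of the deposited tables number the aligner's input files. Libraries whose numbers lay exactly 8 apart were taken as 4 couples of 1 shScr and 1 shEN1 library. These were shScr replicate 1 with shEN1 #1 replicate 2, shScr replicate 2 with shEN1 #2 replicate 2, shScr replicate 3 with shEN1 #1 replicate 1, and shScr replicate 4 with shEN1 #2 replicate 1. The root mean square difference was 0.395 to 0.512 in the couples and 0.495 to 0.841 in the other 24 pairs of libraries. The couples were thus set by the input numbers, and by expression the nearest library was the other of the couple for 7 of the 8. For shEN1 #1 replicate 2, shEN1 #2 replicate 2 (0.495) was nearer than shScr replicate 1 (0.510). What this numbering stands for is not given in the sources used here, and with the couples as a block 0 members were called in any comparison.

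**Figure D1:**
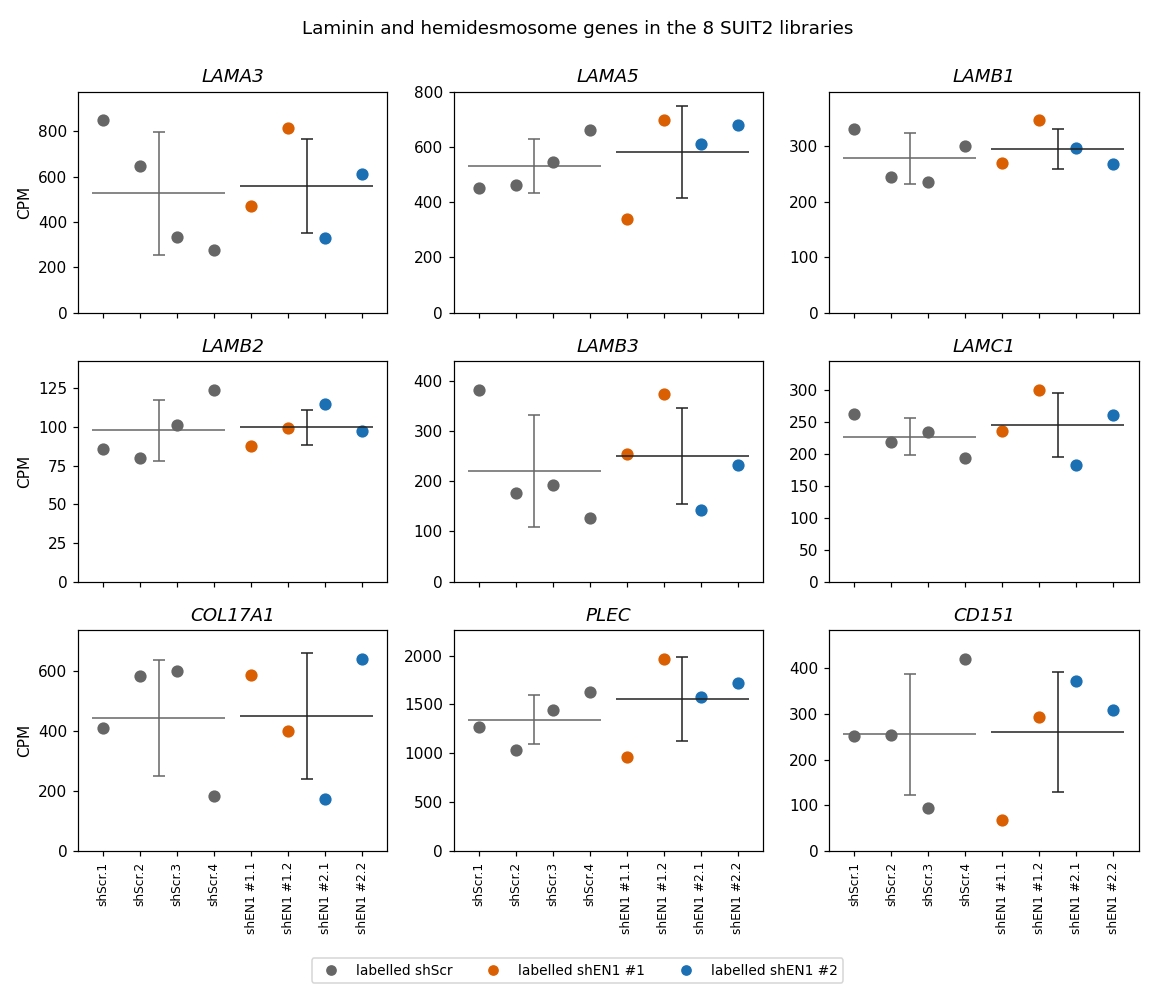
CPM of each of the 9 members in each of the 8 libraries (vertical axes in CPM, starting at 0; 1 point per library, coloured by label; horizontal lines are the means of the 4 shScr and the 4 shEN1 libraries, with bars of 1 SD). For every member the points labelled shScr and shEN1 overlap, and CD151 has the widest relative range, from 68.4 to 421 CPM.

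The libraries labelled shEN1 were compared with those labelled shScr. Since *EN1* itself was not lower under the label shEN1, this comparison cannot show whether these genes change with *EN1* knockdown. None of the 9 members rose or fell by the test. All 9 fitted log2 fold changes were above 0, but small, between 0.02 (*COL17A1*) and 0.21 (*PLEC*), with standard errors (SE) of 0.14 to 0.53. By mean CPM all 9 were higher in the libraries labelled shEN1, as were 48.9% of all tested genes. The fitted signs were not stable: with 1 library left out at a time, 6 of the 9 turned below 0 in at least 1 fit, namely *LAMA3*, *LAMB2*, *LAMB3*, *LAMC1*, *COL17A1* and *CD151*. The value of *CD151* was below 0 with limma-voom (-0.034), with 3 groups (-0.041) and with the couples as a block (-0.032). In that block fit the value of *COL17A1* was practically 0, with a sign just below it. By edgeR's quasi-likelihood test, 0 members passed the threshold of 0.05 after Benjamini-Hochberg adjustment, and 0 passed it unadjusted. The background was 0% of 14333 genes called at the adjusted threshold and 0.307% (44 genes) at the unadjusted one. DESeq2 called 2 genes (0.014%), neither of them a member, with 0.999 as the lowest adjusted p of a member, and limma-voom called 0%. No member had CPM ranges that were separate between the labels, as was so for 0.419% of all tested genes. In bulk libraries, fewer cells expressing a gene and less RNA per cell cannot be told apart.

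*LAMA3*, the alpha chain of the anchoring trimer (gene number 3909; hg19 chromosome 18, from 21269417 to 21536186, plus strand), was measured at 849, 647, 332 and 277 CPM in shScr replicates 1 to 4. It had 473 and 815 CPM in shEN1 #1 replicates 1 and 2, and 328 and 614 CPM in shEN1 #2 replicates 1 and 2. Each label thus held libraries near 300 CPM and libraries above 600 CPM, and the groups overlapped. The shScr mean was 526 ± 269.8 CPM and the shEN1 mean 557 ± 208 CPM (SD, n = 4 each), which gave a log2 fold change of 0.08 (SE 0.39; edgeR adjusted p = 1.00), or 1.06-fold with a 95% interval of 0.578 to 1.94. *LAMB3*, the beta chain of the same trimer (gene number 3914; chromosome 1, from 209788215 to 209825770, minus strand), had 382, 177, 193 and 127 CPM in the shScr libraries. It had 255 and 372 CPM in shEN1 #1 and 142 and 232 CPM in shEN1 #2. The highest library of each label, shScr replicate 1 and shEN1 #1 replicate 2, were the same libraries that were highest for *LAMA3*. The log2 fold change of *LAMB3* was 0.19 (SE 0.37; edgeR adjusted p = 1.00; 95% interval 0.641 to 2.02-fold).

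The ratio of *LAMA3* to *LAMB3* varied less over the libraries than those of *LAMA3* to *LAMA5* and of *LAMB3* to *LAMB1*. Ratios of *LAMA3* or *LAMB3* to *LAMC1* were not computed. Per kb of exon, the ratio of *LAMA3* to *LAMB3* lay between 0.552 in shScr replicate 3 and 1.17 in shScr replicate 2, a range of 2.12 times. The ratio of *LAMA3* to *LAMA5*, the alpha chains of different trimers, varied 4.49 times, from 0.413 in shScr replicate 4 to 1.85 in shScr replicate 1. The ratio of the beta chains *LAMB3* to *LAMB1* varied 2.72 times, with its lowest value in shScr replicate 4 and its highest, 4.62, in shScr replicate 1. Among the chains of the other laminins the ratio of *LAMB1* to *LAMC1* varied 1.62 times, *LAMB2* to *LAMB1* 1.66 times and *LAMA5* to *LAMC1* 2.38 times. These genes varied less on their own: *LAMB1* 1.47, *LAMB2* 1.55, *LAMC1* 1.65 and *LAMA5* 2.05 times. The ratios of *LAMB2* to *LAMB1* and of *LAMA5* to *LAMC1* thus varied more than either gene, and *LAMB1* to *LAMC1* more than *LAMB1*. By contrast, the ratio of *LAMA3* to *LAMB3* varied less than *LAMA3* (3.06 times) or *LAMB3* alone. The ranges of ratios therefore do not rank how closely chains varied together. The level of a ratio depends on the length used: the median of *LAMB3* to *LAMB1* was 3.36 per kb of the union of exons and 1.31 with the longest transcript, and that of *LAMB1* to *LAMC1* was 0.521 and 1.35. The range over libraries does not depend on it. All of these are descriptions over libraries that share a cell line, with no test.

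**Figure D2:**
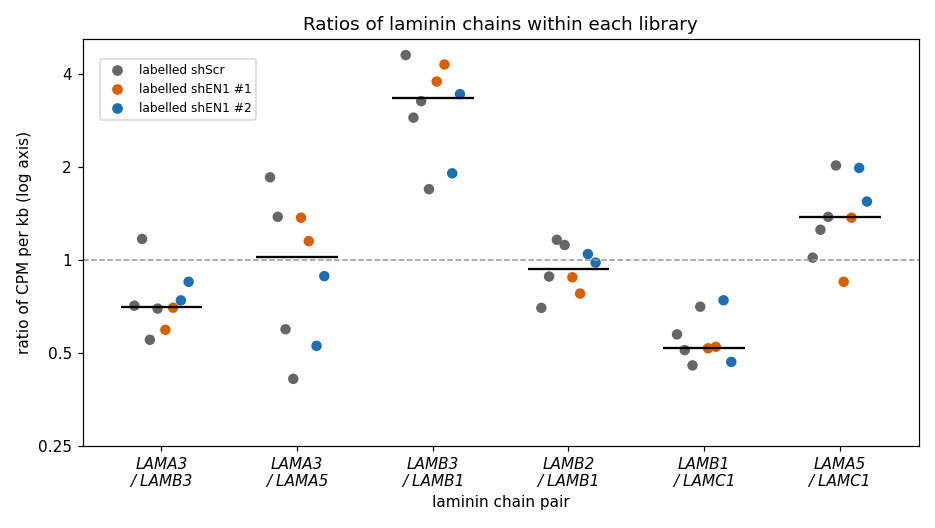
Ratio of CPM per kb of exon between 6 pairs of laminin chains in each of the 8 libraries (vertical log axis; 1 point per library, coloured by label; black lines are medians and the dashed line marks a ratio of 1). The LAMB1 to LAMC1 points span 1.62 times, the LAMA3 to LAMB3 points 2.12 times and the LAMA3 to LAMA5 points 4.49 times. The height of a set of points against the dashed line depends on the exon length used.

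*LAMA5*, the alpha chain of the laminins of mature basement membranes (gene number 3911; chromosome 20, from 60883011 to 60942368, minus strand), had 451, 462, 548 and 662 CPM in shScr. It had 339.8 and 697 CPM in shEN1 #1 and 612 and 682 CPM in shEN1 #2. The lowest library, shEN1 #1 replicate 1, and the highest, shEN1 #1 replicate 2, carried the same construct. The log2 fold change was 0.14 (SE 0.22; edgeR adjusted p = 1.00; 95% interval 0.780 to 1.55-fold). Its exons share 244 bases with *ADRM1* on the other strand, and the strand setting of the counting is not given in the sources used here, so some reads could come from that gene.

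*LAMB1*, its usual beta partner (gene number 3912; chromosome 7, from 107564244 to 107643658, minus strand), was the steadiest member, with 331, 245, 235 and 300.4 CPM in shScr, 269 and 346 CPM in shEN1 #1, and 297 and 269 CPM in shEN1 #2. *LAMB2*, the alternative beta chain (gene number 3913; chromosome 3, from 49158547 to 49170551, minus strand), had 85.7, 80.0, 101 and 124 CPM in shScr, 87.5 and 99.7 CPM in shEN1 #1, and 115 and 97.4 CPM in shEN1 #2. *LAMC1*, the gamma chain shared by these trimers (gene number 3915; chromosome 1, from 182992555 to 183114727, plus strand), had 262, 218, 234 and 193 CPM in shScr, 236 and 300.2 CPM in shEN1 #1, and 182 and 261 CPM in shEN1 #2. For all 3 chains the ranges of the labels overlapped and the highest library was at most 1.65 times the lowest. These narrow spreads gave the narrowest intervals: the change between labels was 0.854 to 1.32-fold for *LAMB1*, 0.809 to 1.29-fold for *LAMB2* and 0.844 to 1.38-fold for *LAMC1* (95% intervals; log2 fold changes 0.09, 0.03 and 0.11, adjusted p = 1.00 for each in edgeR). The exons of *LAMB1* share 300 bases with *DLD* on the other strand.

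Among the hemidesmosome genes, *COL17A1*, the transmembrane collagen (gene number 1308; chromosome 10, from 105791044 to 105845638, minus strand), had 410.0, 581, 600.4 and 181 CPM in shScr, 585 and 400.2 CPM in shEN1 #1, and 173 and 641 CPM in shEN1 #2. Its lowest values were in shScr replicate 4 and shEN1 #2 replicate 1, and the other 6 libraries lay at 400.2 CPM or above. The log2 fold change was 0.02 (SE 0.45; edgeR adjusted p = 1.00), with a 95% interval of 0.504 to 2.04-fold. *PLEC*, the plectin gene (gene number 5339), had 1273, 1032, 1438 and 1630.0 CPM in shScr, 960.3 and 1968 CPM in shEN1 #1, and 1579.6 and 1718 CPM in shEN1 #2. Of the 4 libraries labelled shEN1, 3 lay above the shScr mean of 1343 ± 254 CPM (SD, n = 4), and the other, shEN1 #1 replicate 1, was the lowest of all 8. Its log2 fold change of 0.21 was the largest of the members (SE 0.22; edgeR adjusted p = 1.00; upper bound of the 95% interval 1.62-fold).

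*CD151*, the tetraspanin (gene number 977; chromosome 11, from 832887 to 839831, plus strand), had 251, 253, 94.1 and 421 CPM in shScr, 68.4 and 292 CPM in shEN1 #1, and 372 and 309 CPM in shEN1 #2. Its lowest libraries were shScr replicate 3 and shEN1 #1 replicate 1 and its highest were shScr replicate 4 and shEN1 #2 replicate 1, so each label held low and high libraries. The shScr mean was 255 ± 134 CPM and the shEN1 mean 260.4 ± 132 CPM (SD, n = 4 each), which gave a log2 fold change of 0.03 (SE 0.53; edgeR adjusted p = 1.00; 95% interval 0.446 to 2.34-fold). Its exons share 257 bases with *POLR2L* on the other strand. In an exact two-sided permutation test of the mean CPM over the 70 assignments of the 8 libraries, p lay between 0.429 and 0.971 for the 9 members, where 0.0286 is the smallest p this design allows.

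**Figure D3:**
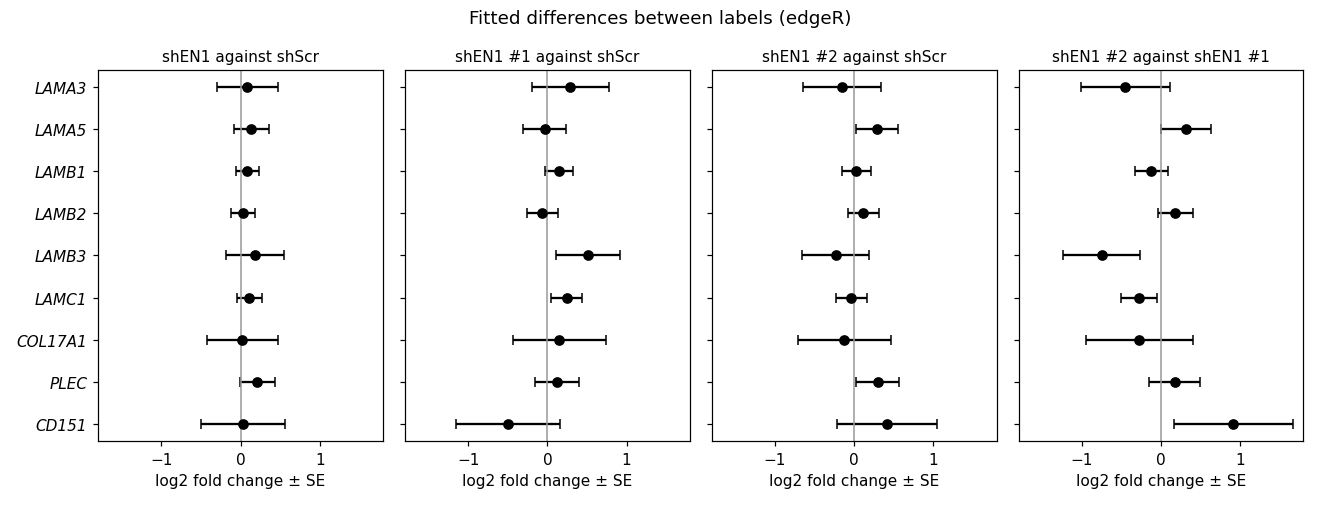
Log2 fold change of each member between labels (horizontal axes; points, with bars of 1 standard error from edgeR), with a panel each for shEN1 against shScr, each construct against shScr and construct #2 against #1. No member was called in any panel, and the widest bars are those of CD151.

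The constructs were then compared with the same 4 shScr libraries, and with each other, in a fit with 3 groups. Since both constructs share their controls, their values are only set side by side. For *LAMB3* the log2 fold change was 0.51 (SE 0.41) for shEN1 #1 and -0.24 for shEN1 #2. *LAMA3* gave 0.29 and -0.16, and *CD151* gave -0.50 (SE 0.66) and 0.42. Of the 9 members 7 had opposite signs with the 2 constructs, the others being *PLEC* and *LAMB1*. The share of all tested genes with opposite signs was not computed, so this count is only a description. The opposition was not stable. With the couples as a block the values of *LAMB3* and *LAMA3* for shEN1 #2 were 0.27 and 0.084, and the difference between the constructs for *LAMB3* was 0.087. In that fit *LAMC1* for shEN1 #2 and *LAMB2* for shEN1 #1 also changed sign. With 1 library left out at a time, the values for shEN1 #1 ran from -1.88 to 0.20 for *CD151* and from -0.62 to 0.39 for *LAMA5*. Those of *COL17A1* took both signs with either construct. *PLEC* was above 0 with both constructs, at 0.12 and 0.30, and *LAMB1* at 0.15 and 0.02. The difference between the constructs itself was 0.92 for *CD151* (SE 0.75, 95% interval 0.566 to 6.29-fold). It was -0.75 for *LAMB3* (SE 0.48, 95% interval 0.276 to 1.28-fold), and it was smaller for the other 7. In none of the 3 comparisons did a member pass the adjusted or the unadjusted threshold in edgeR. With the libraries labelled shScr replicates 3 and 4, shEN1 #1 replicate 1 and shEN1 #2 replicate 1 all left out, an alternative chosen after the data were seen, 1 member passed: *PLEC* for shEN1 #1 against shScr, with a log2 fold change of 0.77 (adjusted p = 0.0315 in edgeR). In that fit 0.049% of 14273 tested genes were called, each construct had 1 library, and the adjusted p for *PLEC* lay between 0.0315 and 1.00 over the alternatives. The background was 0% at the adjusted threshold in each, and the share of tested genes past the unadjusted threshold was 0.656% for shEN1 #1, 0.3% for shEN1 #2 and 1.07% between the constructs. DESeq2 called 0.0209%, 0% and 0% of genes after adjustment, and limma-voom 0% in each, with no member among them. With 2 libraries per construct the 95% intervals were wide: for shEN1 #1 against shScr they ran from 0.566 to 2.65-fold for *LAMA3*, from 0.745 to 2.73-fold for *LAMB3*, from 0.435 to 2.84-fold for *COL17A1* and from 0.246 to 2.04-fold for *CD151*.

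Of the 31 other genes of laminin anchorage on the list, 24 passed the filter. Between labels, 14 had a log2 fold change above 0 and 10 below it, 0 rose and 0 fell by the adjusted p, and 0 passed the unadjusted threshold in edgeR. Their median log2 fold change was 0.05, that of the 9 members was 0.09, and that of all tested genes was -0.0028. The laminin receptor *ITGA6* ranged from 519 to 1262 CPM and had a log2 fold change of 0.07 (SE 0.36). Its hemidesmosomal partner *ITGB4* ranged from 636 to 1611 CPM, with a log2 fold change of 0.05 (SE 0.27), and *DST* ranged from 85.2 to 144 CPM, with a log2 fold change of 0.14 (SE 0.18; adjusted p = 1.00 for all 3 in edgeR). Between the constructs, 1 of the 24 genes, *NTN4* (netrin 4, a laminin-binding protein), passed the unadjusted threshold and none the adjusted one. The 7 genes that did not pass the filter include the collagen IV genes *COL4A1* and *COL4A2*, with at most 22 and 12 counts in a library, *LAMA1*, which was at 0 in every library, and the basal keratin *KRT14*, with at most 6 counts. The network-forming collagen IV chains alpha 1 and alpha 2 of basement membranes were thus at or near 0 in a line where each of the 6 laminin chains had at least 80.0 CPM in every library.

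Levels between genes were compared per kb of union exon length. In this measure the medians over the 8 libraries were 88.8 CPM per kb for *PLEC*, 70.9 for *COL17A1*, 70.1 for *CD151*, 45.6 for *LAMB3*, 40.6 for *LAMA5*, 37.5 for *LAMA3*, 27.8 for *LAMC1*, 15.2 for *LAMB1* and 14.4 for *LAMB2*. The 3 hemidesmosome genes stood above the 6 laminin chains in the medians. Neighbours in this order had overlapping ranges, except *LAMC1* and *LAMB1*, where *LAMC1* was higher in 8 of 8 libraries. The order depends on the length used. Per kb of the longest transcript, *CD151* came first with 146.9 CPM per kb, ahead of *PLEC* with 98.9, and *LAMB1* stood at 42.0 CPM per kb, above *LAMC1* with 29.7, since its union of exons is 18592 bases and its longest transcript 6737.

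**Figure D4:**
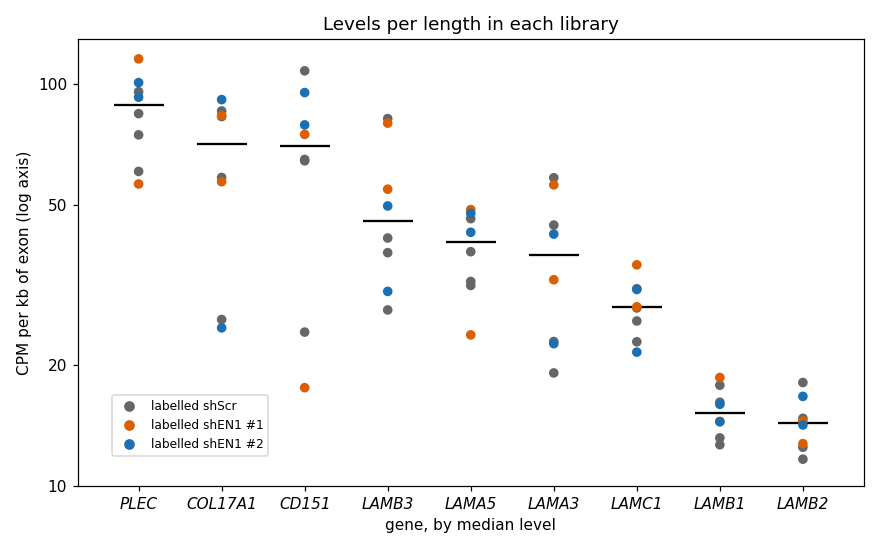
CPM per kb of union exon length of the 9 members (log axis; points are the 8 libraries, coloured by label, and black lines the medians), ordered by median. The medians fall from 88.8 for PLEC to 14.4 for LAMB2, and the ranges of neighbours overlap except between LAMC1 and LAMB1.

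From the lowest to the highest library, *CD151* varied 6.16 times, *COL17A1* 3.70 times, *LAMA3* 3.06 times, and *LAMA5* and *PLEC* 2.05 times each, with *LAMB3* just below *LAMA3*, while *LAMC1*, *LAMB2* and *LAMB1* varied 1.65, 1.55 and 1.47 times. A range of at least 2 times was thus found in 6 of the 9 members and in 35.8% of all tested genes. Ranked by the SD of log2 CPM over the 8 libraries, *CD151* stood at percentile 94.1 of all tested genes, *COL17A1* at 90.1, *LAMA3* at 85.0 and *LAMB3* at 83.1, whereas *LAMB2* stood at 37.1, with *LAMC1* above it and *LAMB1* below it. The median SD was 0.365 for the members and 0.263 for all tested genes. The chains *LAMA3* and *LAMB3* of the anchoring trimer therefore lay in the upper part of the distribution and the beta and gamma chains *LAMB1*, *LAMB2* and *LAMC1* below its middle.

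For 7 of the 9 members the median difference was smaller within the 4 couples of libraries than in the other 24 pairs. The same held for 69.4% of all tested genes, so this count is near the general share and not particular to the members. *COL17A1* was the clearest case. It had 410.0 and 400.2 CPM in the couple of shScr replicate 1 and shEN1 #1 replicate 2, 581 and 641 CPM in that of shScr replicate 2, 600.4 and 585 CPM in that of shScr replicate 3, and 181 and 173 CPM in that of shScr replicate 4. Differences within a couple were 0.035 to 0.14 in log2, while libraries with the same label differed by up to 1.89. For *CD151* the differences were 0.18 to 0.46 within couples and up to 2.44 within a label. *LAMA5* and *PLEC* were the exceptions. In 3 of the 4 couples these genes differed by 0.56 to 0.74 in log2, with the higher value in the library of the higher input number, and in the couple of shScr replicate 4 they differed by 0.11 and 0.045.

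**Figure D5:**
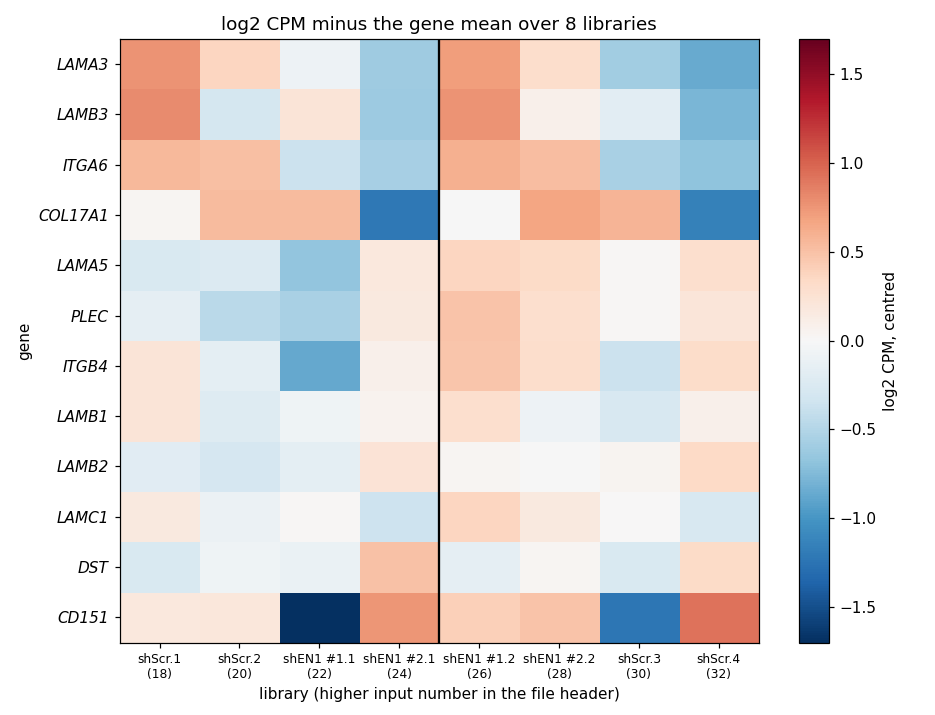
Log2 CPM of the members and of ITGA6, ITGB4 and DST in each library, centred on the mean of the gene over the 8 libraries, with the libraries in the order of the input numbers in brackets and a line between the first 4 and the last 4 (red above and blue below the mean, in log2). Each column left of the line has its couple 4 columns to the right: COL17A1 differs by 0.035 to 0.14 between such columns, and LAMA5 and PLEC differ by 0.56 to 0.74 in 3 of the 4 couples.

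Within the first 4 and the last 4 libraries by input number, each of which holds 2 of either label, the difference between labels took opposite signs for 7 of the 9 members, as it did for 75.9% of all tested genes. *LAMA3* had a mean of 748 CPM in shScr and 400.2 CPM in shEN1 among the first 4 (log2 difference -0.90), and 304 and 714 CPM among the last 4 (1.23). In the first 4, both shEN1 libraries lay below both shScr libraries, and in the last 4 both lay above. *LAMB3* gave -0.50 and 0.92 and *COL17A1* -0.39 and 0.41. *LAMA5* (0.06 and 0.19) and *PLEC* (0.14 and 0.26) were above 0 in both. With 2 libraries of a label in each set, these values have no test. Each couple has 1 library in each set, with opposite labels, so the split restates the couples and is no separate check of the labels.

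For the 6 members that varied at least 2 times, the genes with the most similar course over the 8 libraries were sought among all 14332 other tested genes, by the root mean square difference of centred log2 CPM. For *LAMA3* these included *EREG* (0.139), an EGF receptor ligand, and *KRT80* (0.164), a keratin. For *LAMB3* they were *FBLIM1* (0.132), an adaptor of cell-matrix adhesions, *FBXO32* (0.156) and *TBC1D2* (0.168). *COL17A1* was nearest to *STEAP2* (0.146), *CLIC5* (0.158) and *EHF* (0.160), an epithelial ETS factor. *LAMA5* and *PLEC* were close to each other, at 0.111, and both had *HELZ2* among their nearest genes (0.103 and 0.105), with *UBR4* (0.10) and *HERC2* (0.101), both very large ubiquitin ligases, nearest to *LAMA5* and *KLHL21* (0.098) to *PLEC*. For *CD151* the smallest differences were larger: *DSCAML1* (0.246) came first, then *CABLES2* (0.280) and *PSMD10* (0.309). This measure is not scaled to the spread of a gene. The SD of log2 CPM was 0.947 for *CD151*, 0.365 for *LAMA5* and 0.362 for *PLEC*, so these distances do not rank closeness between members. *ITGA6* stood 0.173 from *LAMA3*. *ITGB4*, which pairs with *ITGA6* in the receptor, stood 0.630 from *LAMA3* and 0.542 from *ITGA6*. The ratio per kb of *CD151* to *ITGA6*, whose proteins associate, varied 7.67 times, and that of *COL17A1* to *ITGB4* 7.34 times. On their own, *CD151* varied 6.16, *COL17A1* 3.70, *ITGB4* 2.53 and *ITGA6* 2.43 times.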

How the data were processed

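RNA-seq libraries of SUIT2 cells were grouped by their titles, in which the number after shEn1 names the construct and the last number the replicate. Counts of reads per gene were deposited as whole numbers, not normalized. The methods of the study give HISAT2 and hg19 for human samples and the submitters' notes list HISAT2, featureCounts and mm9; versions, annotation and strand setting are not given in the sources used here. Identifiers were matched to symbols for 23696 of 25702 genes through RefSeq. Positions and exon lengths came from GENCODE lifted to hg19, and promoter sequences from RefSeq on GRCh38.p14. No pair of libraries was identical, and each pair differed by more than sampling noise (chi-square per gene of at least 10.6).

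Genes were filtered with filterByExpr (minimum count 10), scaled with TMM and tested with edgeR 4.0.16 (glmQLFit robust, glmQLFTest) in R 4.3.3, pooling the constructs, with Benjamini-Hochberg adjustment over 14333 genes and a threshold of 0.05. Standard errors are the log2 fold change over the square root of F. A 3-group fit served the constructs. DESeq2 1.42.0, limma 3.58.1 (voom), other scalings and filters, blocks and left-out libraries were alternatives. The fitting script was run on simulated counts with planted changes. Recovery of these was required only at a spread well below that of these libraries, so the run does not show what could be detected here. Single CPM values were tested by exact permutation.

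Named genes were *EN1*, the members, *ITGA6*, *ITGB4* and *DST*, list genes past the threshold, and the 3 nearest genes of each member varying at least 2 times; other genes (*NTN4*, the collagen IV genes, *LAMA1*, *KRT14* and genes overlapping a member) were named after their values were seen. The members and lists were chosen with earlier results of these data known. A further gene that this rule names is not reported here. The murine organoids of the study were not analysed here.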

Additional observations from a re-analysis of the deposited data

How the results depend on the processing

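The count of called members stayed at 0 in every comparison with DESeq2, with limma-voom, when libraries were scaled by size alone, by upper quartiles or by DESeq2's size factors, without a filter or with a minimum of 10 counts per library, with 3 groups, with only the libraries compared, both blocks on input numbers and each library left out. It was 1 in 1 alternative, with 4 libraries left out (*PLEC*, shEN1 #1 against shScr). The pathway list stayed at 0 throughout. Of the log2 fold changes recomputed under the alternatives (21 for shEN1 against shScr), 97 changed sign, 54 of them when 1 library was left out. In all, 826 results stayed the same, but these include counts of called genes, which have no direction, beside the fold changes. The blocks on input numbers and the fits without 2 or 4 libraries were added after the data were seen, and the cause of the sign changes was not tested. The ratio of the highest to the lowest member's median per kb was 6.19 with the union of exons and 8.49 with the longest transcript. The lowest count of a member in a library was 2442.

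Same-numbered libraries were not treated as pairs in the main fit (correlations of deviations between -0.33 and 0.44). The highest value was that of shScr replicate 2 with shEN1 #2 replicate 2, which also form a couple. Blocking on this number (the replicate block), which leaves shScr replicates 3 and 4 without a partner, gave 0 called members and changed the sign for *LAMA3* (-0.52), *LAMB3* (-0.18), *COL17A1* (-0.14), *ITGA6* (-0.51) and *ITGB4* (-0.024) for shEN1 against shScr, *LAMA3* (-0.30), *LAMA5* (0.11) and *LAMB2* (0.18) for shEN1 #1 against shScr, and *LAMB1* (-0.024) for shEN1 #2 against shScr. With 3 groups it changed for *CD151* (-0.041) for shEN1 against shScr, and with limma-voom for *CD151* (-0.034) and *ITGB4* (-0.0034) for shEN1 against shScr. With input numbers 8 apart as a block it changed for *COL17A1* (-8.4e-05), *CD151* (-0.032) and *ITGB4* (-0.0035) for shEN1 against shScr, *LAMB2* (0.0040) and *COL17A1* (-0.036) for shEN1 #1 against shScr, *LAMA3* (0.084), *LAMB3* (0.27), *LAMC1* (0.087) and *COL17A1* (0.036) for shEN1 #2 against shScr, and *LAMB3* (0.087) and *COL17A1* (0.073) for shEN1 #2 against shEN1 #1. Without shScr replicate 4 and shEN1 #2 replicate 1 it changed for *LAMA5* (0.087), *LAMB2* (0.069) and *COL17A1* (-0.11) for shEN1 #1 against shScr, *LAMA3* (0.010), *LAMB1* (-0.013), *LAMC1* (0.13) and *COL17A1* (0.27) for shEN1 #2 against shScr, and *COL17A1* (0.38) for shEN1 #2 against shEN1 #1. With 4 libraries left out it changed for *LAMA3* (-0.067) for shEN1 against shScr, *LAMA5* (0.61), *LAMB2* (0.27), *COL17A1* (-0.31) and *CD151* (0.21) for shEN1 #1 against shScr, *LAMB1* (-0.10), *LAMC1* (0.12) and *COL17A1* (0.37) for shEN1 #2 against shScr, and *LAMA5* (-0.035), *LAMB2* (-0.038), *COL17A1* (0.68) and *PLEC* (-0.20) for shEN1 #2 against shEN1 #1.

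When 1 of the 8 libraries was left out at a time, the ranges of the log2 fold changes of shEN1 against shScr that changed sign were *CD151* (-0.25 to 0.38), *COL17A1* (-0.24 to 0.29), *DST* (-0.034 to 0.29), *ITGA6* (-0.13 to 0.28), *ITGB4* (-0.11 to 0.27), *LAMA3* (-0.16 to 0.41), *LAMB2* (-0.055 to 0.17), *LAMB3* (-0.069 to 0.59) and *LAMC1* (-0.0040 to 0.23). For shEN1 #1 they were *CD151* (-1.88 to 0.20), *COL17A1* (-0.15 to 0.42), *LAMA3* (-0.14 to 0.63), *LAMA5* (-0.62 to 0.39), *LAMB1* (-0.029 to 0.32), *LAMB2* (-0.15 to 0.073) and *PLEC* (-0.47 to 0.55), for shEN1 #2 *COL17A1* (-1.36 to 0.52), *LAMA3* (-0.68 to 0.21), *LAMB1* (-0.064 to 0.12), *LAMB2* (-0.020 to 0.25), *LAMB3* (-0.63 to 0.17) and *LAMC1* (-0.32 to 0.19), and between the constructs *COL17A1* (-1.51 to 0.36), *LAMA5* (-0.11 to 0.90), *LAMB1* (-0.29 to 0.044) and *PLEC* (-0.26 to 0.75). A construct left with 1 library was assumed to vary like the other groups.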
